A study of Mus musculus with 2 samples.

Results

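Tetraspanins are a family of small membrane proteins that cross the membrane several times and carry a small and a large extracellular loop. The family was taken as every gene whose symbol is Tspan followed by a number, together with Cd9, Cd37, Cd53, Cd63, Cd81, Cd82 and Cd151, which gave 27 of the 32285 genes in the count tables. Tetraspanins bind integrins, proteases, receptors and each other laterally and gather them into membrane domains. One subgroup, called TspanC8, carries the protease Adam10 to the cell surface. Cd9, Cd63 and Cd81 are abundant on extracellular vesicles, and mice that lack Cd9 and Cd81 together develop an emphysema-like lung.

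The cells came from chimeric lungs of 3 C57Bl mice that had received a suspension of single cells carrying the red fluorescent protein tdTomato, taken 6 months after the transplant. The donor strain was not given in the sources used here. The dissociated lungs were pooled before sorting, and live CD45- cells, which leaves out most leukocytes, were split into a tdTomato+ group (donor) and a tdTomato- group (recipient), each giving 1 droplet single-cell library. Mice cannot be told apart within a library, so there was no test between groups, and every interval below is an exact 95% interval that covers counting error only.

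The donor table held 37997269 UMIs (unique molecular identifiers, each counting 1 captured transcript) in 6319 barcodes, and the recipient one 3784 barcodes with 26201315 UMIs. The libraries shared 816 cell barcodes, which is 12.9% of the donor and 21.6% of the recipient barcodes, and the donor copy was the smaller one in 736 of them. The smaller copy was left out. With every shared barcode dropped, 7 of 44 recomputed levels left their counting interval, and values are given below for only some of these. Ratios whose call changed and counts that moved with both copies kept or dropped are given with those values. After filters, 4580 donor and 3191 recipient cells remained, and cell types were gated by UMIs of marker genes that include no tetraspanin. At least 50 cells were reached by 5 donor types (general capillary 2434, aerocyte 1440, venous 135, arterial 64, alveolar type 1 55) and 9 recipient types (alveolar fibroblast 736, aerocyte 596, pericyte 500, general capillary 408, alveolar type 1 178, myofibroblast 128, adventitial fibroblast 84, venous 77, lymphatic 72). The 64 donor cells of the arterial gate had 8991 CPM of the general capillary marker list, close to the 8748 CPM of general capillary cells, with 2564 CPM of the venous and 1858 CPM of the arterial list (894 CPM in general capillary cells). With 1 more marker gene required, 0 of them remained, so they are called arterial-gated and not arterial. General capillary cells and aerocytes are the 2 kinds of alveolar capillary endothelium, and alveolar type 1 cells are the flat gas-exchange epithelium. These are the larger types, and statements on types below cover them alone. Ptprc, which encodes CD45, had 0 to 2 UMIs in each of these 14 combinations of library and type. The levels below are CPM, the UMIs of a gene scaled to 1000000 UMIs of the gated cells, and since a UMI counts a transcript once whatever its length, levels of different genes are set side by side on that scale. Whether transcripts of different genes were captured equally well was not tested.

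Promoter sequences are shown for the 5 members on which the results turn most: the leading member of capillary cells (Tspan7), of aerocytes (Tspan13), of mesenchymal types (Cd81) and of alveolar type 1 cells (Cd9), and Tspan8, which differed between the libraries in general capillary cells. They come from RefSeq (GRCm38.p6), cover 250 bases before to 50 bases after the annotated start and are written 5′ to 3′ on the gene's strand. Capitals mark 3 motifs, each searched on both strands. The first is the ETS core, bound by a large family of transcription factors active in endothelium, with the letters CGGAAG. The second is the TATA box of core promoters, which was searched for as TATAAA. The third is the GC box, a site of Sp1 and related factors common in promoters rich in CpG, here GGGCGG. An ETS core can overlap a GC box.
Tspan8, chr10:115817034-115817333, plus strand: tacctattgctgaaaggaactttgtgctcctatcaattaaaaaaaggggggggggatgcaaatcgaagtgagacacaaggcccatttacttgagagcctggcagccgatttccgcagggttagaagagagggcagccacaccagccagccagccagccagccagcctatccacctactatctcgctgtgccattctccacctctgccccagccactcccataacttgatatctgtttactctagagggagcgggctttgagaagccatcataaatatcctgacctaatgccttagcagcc
Tspan7, chrX:10484866-10485165, plus strand: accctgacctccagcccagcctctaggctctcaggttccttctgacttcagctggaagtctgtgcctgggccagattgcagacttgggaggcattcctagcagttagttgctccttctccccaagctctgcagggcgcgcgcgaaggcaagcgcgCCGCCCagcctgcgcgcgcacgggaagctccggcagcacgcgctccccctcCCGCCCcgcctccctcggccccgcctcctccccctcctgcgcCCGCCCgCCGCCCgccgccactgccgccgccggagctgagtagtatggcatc
Tspan13, chr12:36042429-36042728, minus strand: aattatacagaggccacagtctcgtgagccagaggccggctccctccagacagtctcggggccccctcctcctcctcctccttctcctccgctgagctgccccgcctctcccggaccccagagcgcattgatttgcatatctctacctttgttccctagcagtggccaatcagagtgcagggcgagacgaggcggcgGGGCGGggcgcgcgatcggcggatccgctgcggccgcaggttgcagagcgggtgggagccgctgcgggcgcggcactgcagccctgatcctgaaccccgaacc
Cd81, chr7:143052500-143052799, plus strand: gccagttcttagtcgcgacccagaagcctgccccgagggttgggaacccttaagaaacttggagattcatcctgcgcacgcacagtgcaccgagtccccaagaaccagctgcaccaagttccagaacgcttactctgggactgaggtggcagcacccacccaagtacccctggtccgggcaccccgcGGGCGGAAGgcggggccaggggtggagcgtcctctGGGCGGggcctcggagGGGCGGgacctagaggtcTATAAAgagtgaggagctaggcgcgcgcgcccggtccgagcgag
Cd9, chr6:125494711-125495010, minus strand: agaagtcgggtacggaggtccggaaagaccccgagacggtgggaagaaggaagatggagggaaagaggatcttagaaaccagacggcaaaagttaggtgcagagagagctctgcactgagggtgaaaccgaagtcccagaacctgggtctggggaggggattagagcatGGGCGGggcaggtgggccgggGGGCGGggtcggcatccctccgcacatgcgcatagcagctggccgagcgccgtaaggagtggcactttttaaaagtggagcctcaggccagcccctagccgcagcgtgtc
The Tspan8 window held none of the 3 motifs, with a GC content of 51.7% and 5 CpG dinucleotides. The start of Tspan8 in the GENCODE annotation, chr10:115816832, lies before this window and is not covered by it. Tspan7 held 4 GC boxes and Tspan13 held 1, at GC contents of 70.3% and 67.3% with 27 and 26 CpG dinucleotides. Cd81 held all 3 motifs, with an ETS core that overlaps a GC box, and Cd9 held 2 GC boxes. Of the 27 members, 26 had an entry, with 36 promoters in all: 14 members had a GC box, 5 an ETS core (Cd63, Cd81, Cd82, Tspan11, Tspan32) and 2 a TATA box (Cd81, Tspan12) in at least 1 promoter. Over 32851 promoters of the same length, 35.7% held a GC box, 16.9% an ETS core and 13.6% a TATA box, and the medians were 52.7% GC and 7 CpG dinucleotides. These shares are per promoter, whereas the member counts are per gene over 1 or more promoters, so they cannot be compared directly. A match describes letters in the window and is not evidence of binding.

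Aerocytes had the highest summed tetraspanin level of the larger types in both libraries, at 9091 CPM in the donor and 9353 CPM in the recipient library. General capillary cells summed to 6686 CPM in the donor and 6340 CPM in the recipient library. Venous cells summed to 6839 and 6310 CPM, donor arterial-gated cells to 5828 CPM and alveolar type 1 cells to 6438 CPM (donor) and 7312 CPM (recipient). The mesenchymal types were lower: the sum was 3760 CPM in myofibroblasts, 3797 CPM in pericytes, 4246 CPM in alveolar fibroblasts and 4732 CPM in adventitial fibroblasts. Lymphatic cells lay between the groups at 4888 CPM. The leading member changed with the lineage, from Tspan7 (32.4% of the family's UMIs in donor and 30.7% in recipient general capillary cells) to Tspan13 in aerocytes (27.0% and 26.4%). Cd9 led in recipient alveolar type 1 (29.2%), venous (34.3%) and lymphatic (30.5%) cells, and Cd81 in pericytes (51.2%), alveolar fibroblasts (55.2%), myofibroblasts (32.4%) and adventitial fibroblasts (30.9%).

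**Figure D1:**
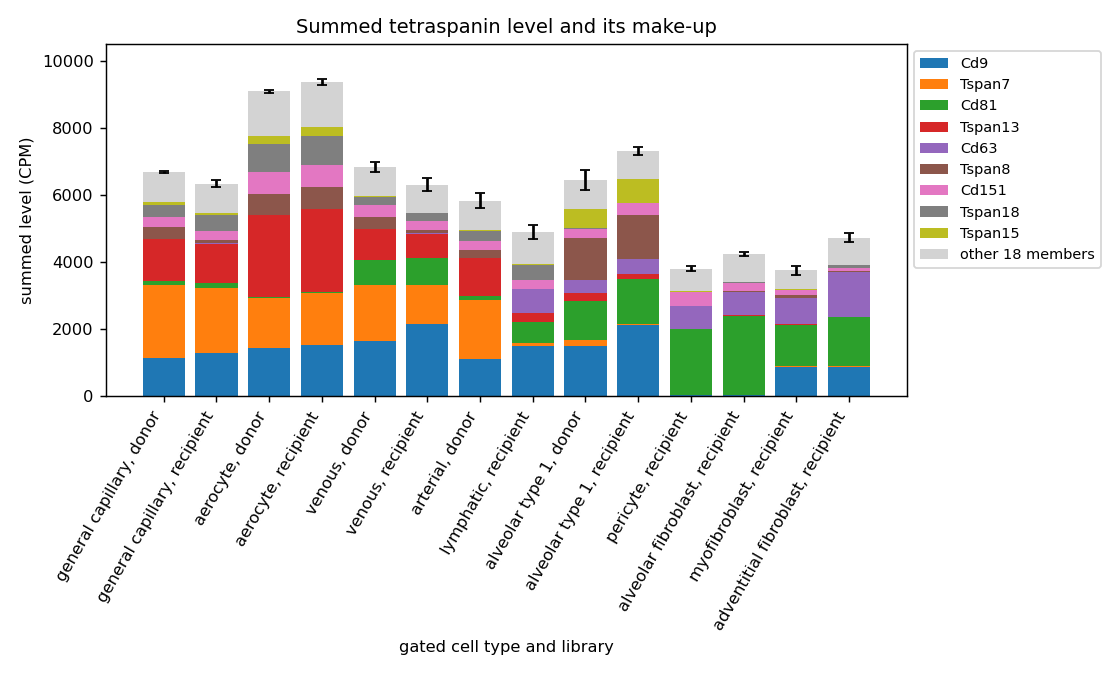
Summed level of the 27 tetraspanin genes (y axis, CPM) in each gated cell type and library (x axis). Coloured segments are the 9 members with the highest mean level and the grey segment the other 18, and error bars are exact 95% Poisson intervals of the sum. Aerocytes stand highest at 9091 and 9353 CPM, and the Cd81 and Cd63 segments widen in the mesenchymal types.

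Tspan7, Tspan13, Tspan12 and Tspan18 were among the members whose highest level was in blood endothelium in both libraries. Tspan7 is an X-linked gene known from neurons, where its loss is tied to intellectual disability. It was at 2169 CPM in donor and 1943 CPM in recipient general capillary cells. In aerocytes it was at 1493 and 1531 CPM, in venous cells at 1675 and 1166 CPM and in donor arterial-gated cells at 1774 CPM. Lymphatic cells, an endothelium of another vessel type, had 112 CPM, with 48 UMIs in 13.9% of the cells. The 4 mesenchymal types had 14.2 to 48.1 CPM.

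Tspan13 was at 2457 CPM (interval 2430 to 2484) in donor and 2474 CPM (2428 to 2520) in recipient aerocytes, the highest level of a member in the larger types. General capillary cells had 1260 and 1147 CPM, arterial-gated cells 1125 CPM and venous cells 923 and 726 CPM. It fell to 251 CPM in lymphatic cells and to 4.38 to 24.6 CPM in the mesenchymal types. Tspan12, a co-receptor subunit of the Norrin and Frizzled4 complex of the retinal vasculature, had the same order at lower levels. It was at 536 CPM in donor and 545 CPM in recipient aerocytes, at 158 and 164 CPM in general capillary cells and at 105 and 112 CPM in venous cells. Tspan18, which regulates calcium entry through Orai1 in endothelial cells, was at 855 and 882 CPM in aerocytes against 364 and 478 CPM in general capillary cells. It was also at 433 CPM in lymphatic cells, so unlike Tspan7 it was within the capillary range there. Alveolar type 1 cells had 18.0 CPM (donor) and 3.99 CPM (recipient) of Tspan18.

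**Figure D2:**
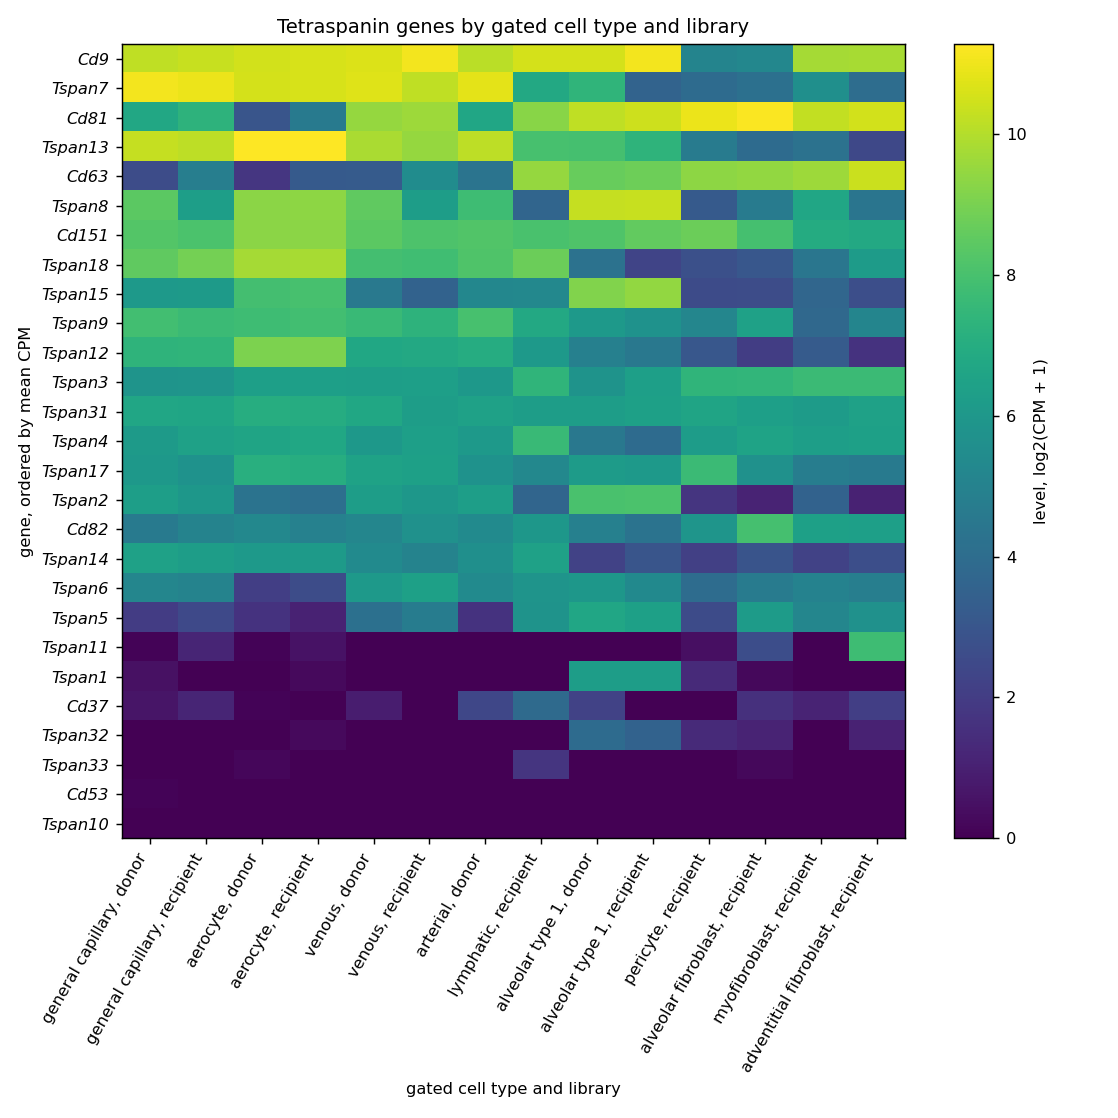
Level of each tetraspanin gene (rows, ordered by mean CPM over the columns) in each gated cell type and library (columns), coloured by log2(CPM + 1). Tspan7, Tspan13 and Tspan18 are bright in the capillary columns, Cd81 and Cd63 in the mesenchymal columns, and Tspan1 and Tspan11 each in one cell type.

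Tspan8, best known from carcinomas of epithelial origin, was highest by summed UMIs in alveolar type 1 cells and then in aerocytes in both libraries. The order of its levels began with alveolar type 1 cells at 1229 CPM (interval 1102 to 1367) in the donor and 1293 CPM (1249 to 1338) in the recipient library. Aerocytes came next, at 639 CPM (625 to 653) and 658 CPM (634 to 682). The donor venous cells at 371 CPM (337 to 407) and donor general capillary cells at 347 CPM (337 to 357) did not differ beyond their intervals, and donor arterial-gated cells had 221 CPM (180 to 268). Recipient general capillary cells had 79.2 CPM (68.3 to 91.4) and recipient venous cells 75.8 CPM (56.3 to 99.9), which overlap with each other and with myofibroblasts at 102 CPM (81.6 to 126). Alveolar fibroblasts (24.7 CPM), adventitial fibroblasts (19.7 CPM), lymphatic cells (11.7 CPM) and pericytes (8.06 CPM) were lowest. In the myofibroblasts the 85 UMIs of Tspan8 came from 19.5% of the cells. The antisense gene that overlaps Tspan8, 4930422I22Rik, had at most 8 UMIs in any of the 14 combinations, beside 4798 UMIs of Tspan8 in the donor general capillary cells.

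**Figure D3:**
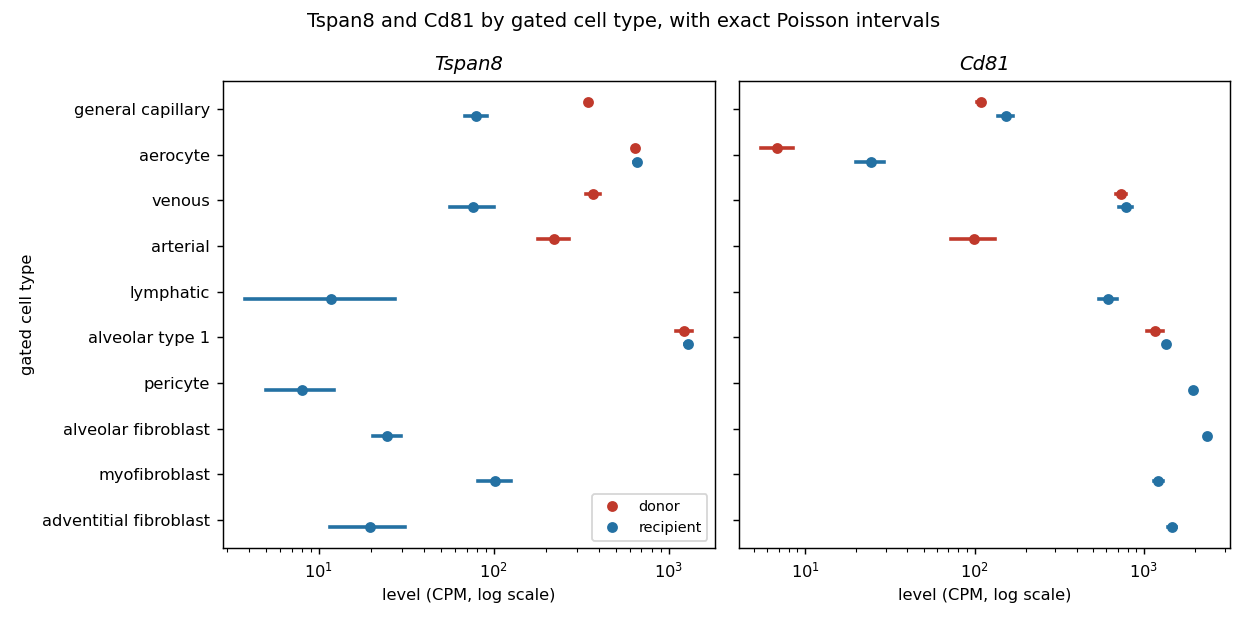
Levels of Tspan8 (left) and Cd81 (right) on a log axis of CPM by gated cell type (rows). Points are library values (red donor, blue recipient) and lines exact 95% Poisson intervals. For Tspan8 the donor and recipient points lie together in aerocytes and alveolar type 1 cells and apart in general capillary and venous cells. For Cd81 the aerocytes are lowest, at 6.85 and 24.4 CPM.

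Alveolar type 1 cells held the highest levels of Tspan15, Tspan2, Tspan1 and Tspan5. Tspan15, a TspanC8 member, was at 555 CPM in donor and 706 CPM in recipient cells, against 237 and 255 CPM in aerocytes. In general capillary cells it was at 67.6 and 70.4 CPM, and in the mesenchymal types at 4.99 to 12.0 CPM. Tspan2, abundant in myelinating glia, was at 263 and 273 CPM in alveolar type 1 cells and at 77.8 and 61.5 CPM in general capillary cells. Aerocytes, which share Tspan8 and Tspan15 with alveolar type 1 cells, had 18.8 and 16.1 CPM of Tspan2. Tspan1, known from several epithelia, was at 75.7 and 77.1 CPM in alveolar type 1 cells and at most 1.53 CPM in every other one of the larger types. Tspan5, another TspanC8 member, was at 101 and 84.7 CPM there, followed by alveolar fibroblasts at 71.3 CPM and lymphatic cells at 53.9 CPM, while aerocytes had 2.10 and 1.12 CPM. The recipient alveolar type 1 values rest largely on shared barcodes. Leaving every shared barcode out cut those cells from 178 to 44, lowered Tspan8 from 1293 to 896 CPM, Tspan15 from 706 to 511 CPM and Tspan1 from 77.1 to 30.4 CPM. Averaging CPM over cells instead of summing UMIs gave 685 CPM of Tspan8 and 29.8 CPM of Tspan1 in donor alveolar type 1 cells, whose median depth was 2149 UMIs against 14324 in the recipient cells. Donor aerocytes had 639 CPM of Tspan8 by summed UMIs, not far below that averaged value.

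Cd9, which is required on the egg for fusion with sperm and is a major platelet protein, was abundant in the larger types except pericytes and alveolar fibroblasts. It was at 1155 CPM in donor and 1295 CPM in recipient general capillary cells, at 1446 and 1543 CPM in aerocytes, at 1650 and 2166 CPM in venous cells and at 1510 and 2134 CPM in alveolar type 1 cells. Lymphatic cells had 1492 CPM and donor arterial-gated cells 1110 CPM. The mesenchymal types split into 2 pairs that did not overlap: 32.6 CPM in pericytes and 35.9 CPM in alveolar fibroblasts against 861 CPM in myofibroblasts and 879 CPM in adventitial fibroblasts. Of the pericytes 10.8%, and of the alveolar fibroblasts 12.0%, had any Cd9 UMI, against 100% of myofibroblasts and 96.4% of adventitial fibroblasts.

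Cd81, an entry receptor of hepatitis C virus in humans, ran the other way in part. It was at 2345 CPM in alveolar fibroblasts, 1946 CPM in pericytes, 1460 CPM in adventitial fibroblasts and 1216 CPM in myofibroblasts. Alveolar type 1 cells were at the same scale, with 1161 CPM (donor) and 1356 CPM (recipient). Within the blood endothelium it was uneven: venous cells had 728 and 778 CPM, general capillary cells 109 and 153 CPM, donor arterial-gated cells 99.5 CPM and aerocytes 6.85 and 24.4 CPM. With each cell's UMIs reduced to 2000, 14.3% of donor and 19.4% of recipient general capillary cells had a Cd81 UMI. An equal level in every cell gives 18.3% and 24.3% by the Poisson formula, so the UMIs were gathered in somewhat fewer cells. Venous cells at the same depth had a Cd81 UMI in 71.4% and 77.0% of cells.

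Cd63, a protein of late endosomes, lysosomes and the storage granules of endothelial cells, was high in the mesenchyme, in lymphatic cells and in alveolar type 1 cells and low in blood endothelium. Adventitial fibroblasts had 1343 CPM, myofibroblasts 788 CPM, lymphatic cells 728 CPM, alveolar fibroblasts 707 CPM and pericytes 662 CPM. Alveolar type 1 cells had 396 CPM in the donor and 446 CPM in the recipient library. The 7 blood endothelial values lay between 2.41 and 44.0 CPM. Cd82, described as a metastasis suppressor, was highest in alveolar fibroblasts at 246 CPM and lay between 18.4 and 82.9 CPM in the other types. Cd151, which binds laminin-binding integrins, was highest in aerocytes (631 and 642 CPM), followed by pericytes at 427 CPM, and lowest in adventitial fibroblasts at 112 CPM.

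The remaining members above 20 CPM fall into the TspanC8 genes, Tspan11 and a set with broad levels. Tspan11 was at 217 CPM in adventitial fibroblasts and at most 5.33 CPM in every other one of the larger types. Leaving every shared barcode out cut the adventitial fibroblasts from 84 to 22 cells, under the limit of 50. All values of this type, those of Cd9 and Cd63 included, thus rest largely on shared barcodes. Tspan17 and Tspan14 complete the TspanC8 members above 20 CPM. Tspan17 was highest in pericytes at 207 CPM and then in aerocytes at 138 and 128 CPM, and Tspan14 was at 31.8 to 86.9 CPM in endothelium and 3.45 to 6.79 CPM elsewhere. Tspan9, known from platelets, was at 257 CPM in donor arterial-gated cells and 231 and 207 CPM in general capillary cells, and it was lowest in myofibroblasts at 13.2 CPM. Tspan4, a component of migrasomes, was highest in lymphatic cells at 201 CPM. Tspan3 ranged from 54.1 to 207 CPM and was highest in myofibroblasts. Tspan6 ranged from 3.27 CPM in donor aerocytes to 84.9 CPM in recipient venous cells. Tspan31 had the narrowest range of these genes, from 72.1 to 128 CPM, and its gene overlaps Cdk4 on the opposite strand. Whether the counting used strand is not given in the sources used here. Cdk4 was at 39.9 to 105 CPM, and Chid1, which overlaps Tspan4, at 13.5 to 46.9 CPM. Whether reads of these pairs were mixed where the genes overlap was not tested.

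The other 5 members stayed below 20 CPM in each of the larger types. Cd53 and Cd37 are leukocyte tetraspanins and Tspan32 is known from blood cells. Cd53 had 1 UMI in the donor general capillary cells and none in the other larger types, and Cd37 reached 14.1 CPM in lymphatic cells, on 6 UMIs. The leukocyte marker list summed to 44.5 CPM there, on 19 UMIs from 2 of its 6 genes, with Ptprc, Laptm5, Coro1a and Tyrobp at 0. Cd37 overlaps Tead2 on the opposite strand, which had 8 UMIs in the lymphatic cells, and whether reads of this pair were mixed was not tested. Tspan32 was at 14.4 and 10.8 CPM in alveolar type 1 cells, on 4 and 27 UMIs. Tspan33, a TspanC8 member, reached 2.34 CPM in lymphatic cells. Tspan10, also of TspanC8, had 0 UMIs in all 14 combinations, and the 3-UMI limit is 0.217 CPM in donor general capillary cells, the deepest of them.

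A member was called concentrated when its highest type was at least 2-fold above every other type of the same library. In the donor library, 21 of the 27 members reached 20 UMIs over the 5 types and 7 of them were concentrated, beside 18.0% of all 12745 genes that reached the minimum. In the recipient library, 24 members reached it over the 9 types and 9 were concentrated, beside 19.7% of 13749 genes. Tspan12 in aerocytes and Tspan15, Tspan2 and Tspan1 in alveolar type 1 cells passed in both libraries. Tspan12 was 3.38-fold (donor) and 3.33-fold (recipient) above general capillary cells, the next type. Tspan15 was 2.34-fold and 2.77-fold above aerocytes. Tspan18 in aerocytes passed in the donor library (2.35-fold) and Tspan13 in the recipient library (2.16-fold). Tspan5 and Cd63 passed in donor alveolar type 1 cells, in a library without 50 gated fibroblasts or lymphatic cells, which were the high types of these genes in the recipient library. Tspan11 in adventitial fibroblasts was 40.7-fold above alveolar fibroblasts, and Cd82 in alveolar fibroblasts was 2.96-fold above myofibroblasts. Tspan32 and Cd37 also passed, both below 20 CPM.

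The donor and recipient libraries were compared in the 4 types with at least 50 cells in both. A gene was called apart when the levels differed at least 1.5-fold and the interval of the ratio left out 1. In each type, 20 of the 27 members had at least 20 UMIs over both libraries, and 2 of them, or 10.0%, were apart. Among all genes with that minimum, 9.49% were apart in general capillary cells, 3.99% in aerocytes, 9.35% in venous cells and 8.94% in alveolar type 1 cells, so the members' share lay near the background in 3 types. The median log2 ratio of the tested members was 0.01 in general capillary cells, -0.04 in aerocytes, 0.08 in venous cells and 0.05 in alveolar type 1 cells. Over all tested genes it was 0.00, -0.02, 0.05 and -0.01.

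**Figure D4:**
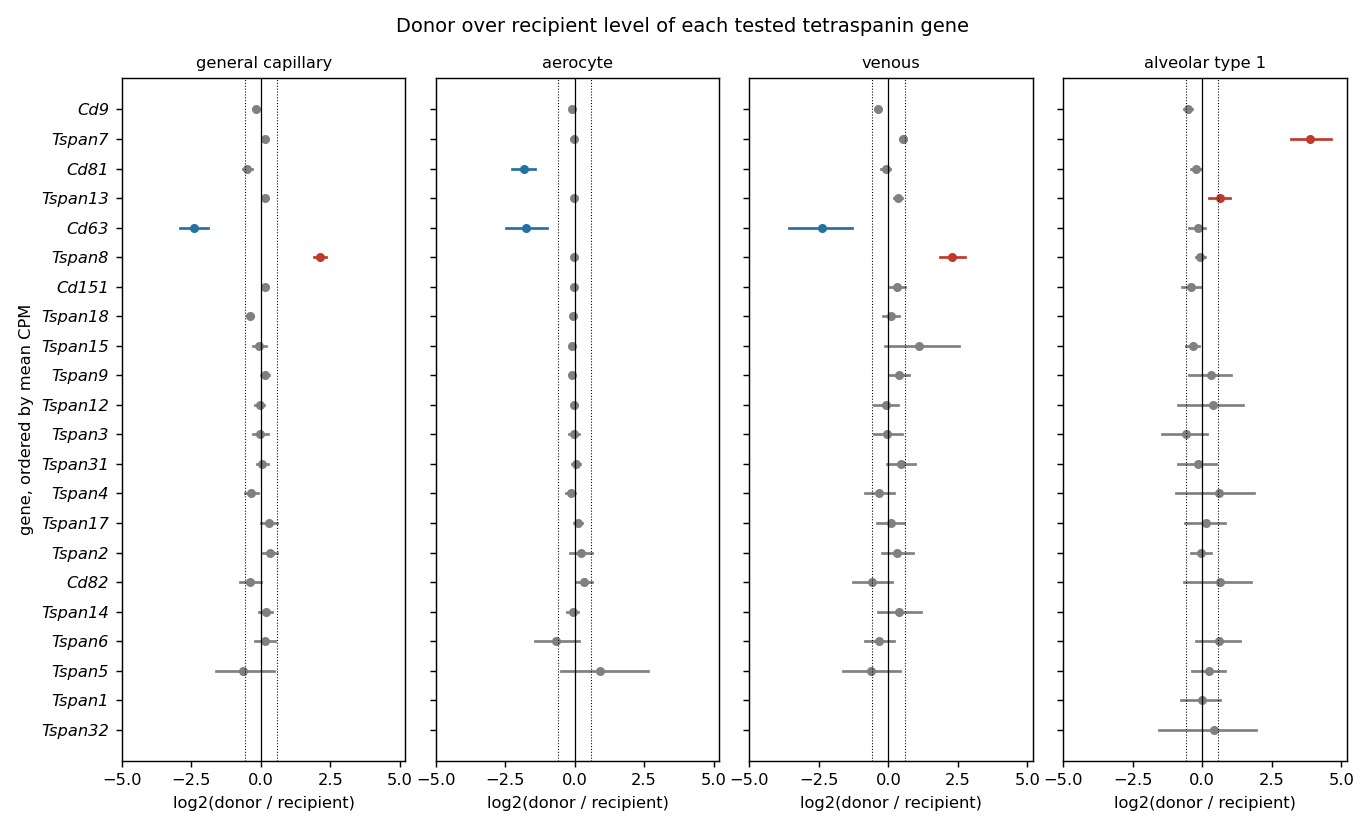
Log2 ratio of donor over recipient level (x axis) of each tetraspanin gene with at least 20 UMIs (rows), in the 4 cell types compared. Points are ratios, lines exact conditional 95% intervals, red points genes apart and higher in the donor library, blue points genes apart and lower, and dotted lines mark 1.5-fold. Tspan8 is apart in general capillary and venous cells and near 0 in aerocytes and alveolar type 1 cells.

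Tspan8 was the member higher in the donor library in general capillary and venous cells. In general capillary cells it was at 347 CPM (4798 UMIs) against 79.2 CPM (188 UMIs), a 4.38-fold difference with an interval of 3.78 to 5.09. In venous cells it was at 371 CPM (440 UMIs) against 75.8 CPM (50 UMIs), a 4.90-fold difference (3.65 to 6.70). In aerocytes the log2 ratio was -0.04 and in alveolar type 1 cells -0.07, with ratios of 0.972 (0.931 to 1.01) and 0.951 (0.848 to 1.06). The alveolar type 1 value moved to -0.81 with CPM averaged over cells and to 0.29 with shared barcodes left out of both libraries. The difference was thus past the 1.5-fold limit in 2 endothelial types and under it in the other two types, and it lay between 2.03 and 2.23 (log2) in general capillary cells under every alternative run. With each cell reduced to 2000 UMIs, 43.8% of donor and 11.7% of recipient general capillary cells had a Tspan8 UMI (71.2% and 22.8% before the reduction), against 1.52% of pericytes. The median depths were 5381 UMIs (donor) and 5503 UMIs (recipient) in general capillary cells and 4993 UMIs in pericytes. In aerocytes the shares were 70.6% and 71.1%, and in venous cells 45.9% and 9.75%. Aerocytes have more Tspan8, and the 6 aerocyte markers moved with it: they summed to 320 CPM in donor and 153 CPM in recipient general capillary cells and to 88.5 and 54.6 CPM in venous cells, with UMIs of all 6 in each. In aerocytes they summed to 7915 and 8570 CPM. Their part in the Tspan8 difference was not tested. An equal level in every general capillary cell gives 49.7% (donor) and 15.4% (recipient) by the Poisson formula. Transplant and sort differ together between the libraries and cannot be told apart. The donor strain was not given, and a strain difference, if any, would go with them.

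**Figure D5:**
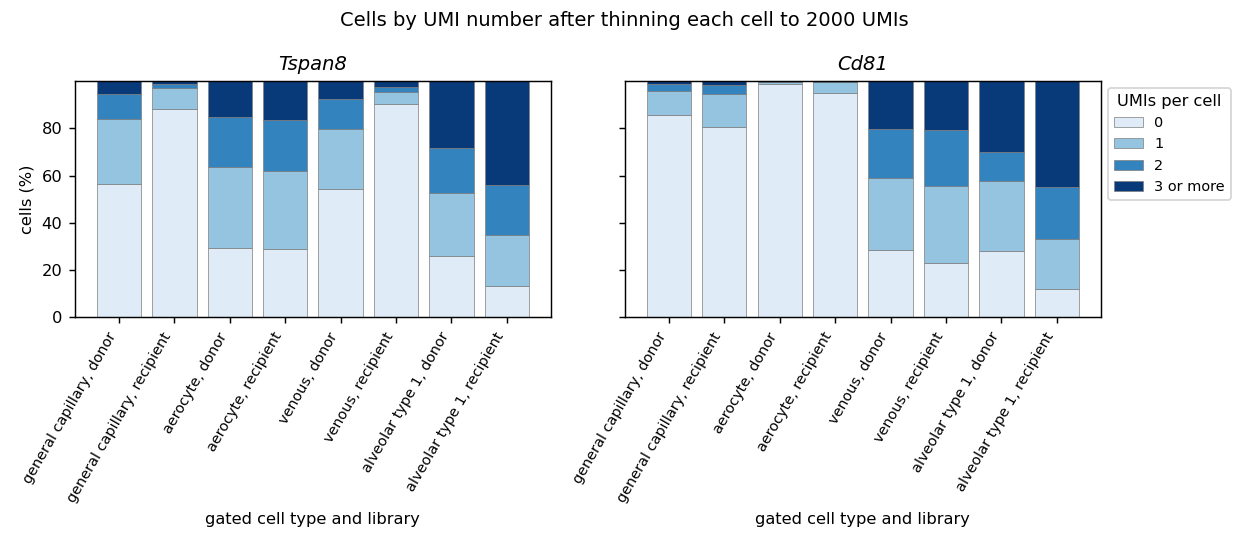
Share of cells (y axis, percent) with 0, 1, 2 or 3 and more UMIs of Tspan8 (left) and Cd81 (right), as computed for each cell reduced to 2000 UMIs, in the 4 compared cell types and both libraries (x axis). Cells with no Tspan8 UMI make up 56.2% of donor and 88.3% of recipient general capillary cells, but 29.4% and 28.9% of aerocytes.

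Cd63 was lower in the donor library in all 3 compared endothelial types. It was at 5.14 CPM (71 UMIs) against 27.4 CPM (65 UMIs) in general capillary cells, a level 5.34-fold lower (3.75 to 7.58). In venous cells it was at 8.43 CPM (10 UMIs) against 44.0 CPM (29 UMIs), 5.21-fold lower (2.47 to 12.0), and in aerocytes at 2.41 CPM (31 UMIs) against 8.06 CPM (36 UMIs). Cd81 was lower in donor aerocytes, at 6.85 CPM (88 UMIs) against 24.4 CPM (109 UMIs), 3.56-fold lower (2.67 to 4.77). Cd81 was not apart in general capillary (log2 ratio -0.49) or venous cells (-0.10). Both genes are abundant in mesenchymal cells, which were far fewer in the donor library (49 gated pericytes and 3 alveolar fibroblasts), and mesenchymal transcripts moved with them. The list of 4 pan-mesenchymal markers (Col1a1, Col1a2, Col3a1, Pdgfra) summed to 1.66 CPM in donor and 49.3 CPM in recipient general capillary cells, to 0.856 and 34.2 CPM in aerocytes and to 1.69 and 40.9 CPM in venous cells. All 4 markers had UMIs in the recipient endothelial types, and in the donor Pdgfra was at 0 in aerocytes and 3 of the 4 were at 0 in venous cells. After subtraction of free RNA estimated from markers of other lineages (2.71% and 2.58% of UMIs in general capillary cells, 1.51% and 1.85% in aerocytes, 3.95% and 2.18% in venous cells), Cd63 was still lower in donor general capillary (log2 ratio -2.02) and venous (-2.28) cells. In aerocytes the same subtraction turned the sign of both genes, to log2 ratios of 1.35 for Cd63 and 0.55 for Cd81. The Cd63 value rests on fewer than the 31 and 36 UMIs present before subtraction, and the Cd81 value is under the 1.5-fold limit. The profile subtracted was the summed UMIs of all barcodes in the library's count table and not of empty droplets. It thus stands in for free RNA and holds the cells' own transcripts. The part of mesenchymal transcripts in the differences that remained was not tested.

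In alveolar type 1 cells Tspan7 and Tspan13 were higher in the donor library. Tspan7 was at 166 CPM (46 UMIs) against 11.2 CPM (28 UMIs), a 14.8-fold difference (9.08 to 24.6). Tspan13 was at 249 CPM (69 UMIs) against 159 CPM (399 UMIs), a 1.56-fold difference (1.19 to 2.02). Both are leading members of the capillary endothelium, and the 4 pan-endothelial markers moved with them, from 77.5 CPM in recipient to 768 CPM in donor alveolar type 1 cells. All 4 of these markers had UMIs in both libraries, and their part in the result was not tested. Tspan7 UMIs were found in 32.7% of the donor cells and 12.4% of the recipient cells. Tspan13 was no longer apart after subtraction of free RNA (log2 ratio 0.08), with shared barcodes kept in both libraries (0.53) or with a stricter gate (0.56), beside 0.64 in the analysis reported. Tspan7 kept a log2 ratio between 3.66 and 4.26 in the alternatives that give it a value. These donor values rest on 55 cells, or 131 with shared barcodes kept, and the number of members apart ranged from 1 to 6 over the alternatives.

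Partner genes were taken from lists of proteins that members bind or process. Of all tested genes, 9.49% were apart in general capillary cells, 3.99% in aerocytes, 9.35% in venous cells and 8.94% in alveolar type 1 cells. At these shares, a count of 0 in a list this short is no result about the list. Adam10, the protease carried by TspanC8 members, was at 63.5 and 81.4 CPM in general capillary cells and highest in lymphatic cells at 290 CPM. Among Adam10 and 7 genes listed as its substrates (Notch1, Notch2, Notch4, Cdh5, Cdh2, Gpc1, Cd44), 0 of 6 tested genes were apart in general capillary cells and 0 of 5 in aerocytes. In venous cells 3 of 5 were apart: Cdh5 (1236 against 696 CPM, 1.78-fold) and Notch4 (90.2 against 48.5 CPM) were higher in the donor library, and Cd44 (62.4 against 95.5 CPM) was lower. Cdh5 is also one of the markers that gated the endothelial types.

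Of the Norrin and Frizzled4 complex that Tspan12 joins, 0 of 4 tested genes were apart in each endothelial type. Fzd4 was at 336 and 372 CPM in general capillary cells and 114 and 118 CPM in aerocytes, the reverse of the order of Tspan12. The ligand Ndp had at most 3.61 CPM in any of the larger types. Of the laminin-binding integrins, Itga3 was at 371 and 411 CPM in aerocytes and 332 and 435 CPM in alveolar type 1 cells, the types with most Tspan8, and at 72.0 and 68.7 CPM in general capillary cells. Itga6 had the reverse order, with 233 and 187 CPM in general capillary cells and 4.43 and 1.79 CPM in aerocytes. Itga6 in aerocytes and Itga3 in venous cells (1.62-fold) were the members of this list that were apart, both higher in the donor library.

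Among the EWI proteins and other primary partners, Mmp14 was apart in general capillary cells (20.7 against 12.2 CPM, higher in the donor library) and Ptgfrn in venous cells (103 against 62.1 CPM, higher). Ifitm1 was lower in donor general capillary cells (1.95 against 5.90 CPM) and aerocytes (1.32 against 10.1 CPM), and it was at 1825 CPM in recipient pericytes. In alveolar type 1 cells Ifitm2 (249 against 32.7 CPM), Ifitm3 (537 against 35.1 CPM), Cdh5 and Ctnnb1 were higher in the donor library, where the pan-endothelial markers were higher too. Cdh5 is itself among those markers. None of the 9 vesicle and endosome genes was apart in any of the 4 types, at 7 to 9 tested genes a type. Of 7 related genes outside the family rule, Tm4sf1 was at 3539 and 3654 CPM in general capillary cells against 325 and 279 CPM in aerocytes, and Upk1b was at 190 CPM in alveolar fibroblasts and at most 2.68 CPM in the other larger types.

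The genes whose profile over the 14 combinations of library and type lay closest to each leading member were found by Pearson's r of log2(CPM + 1), as a description over points that share libraries. For Tspan8 they were Pik3cb (0.93), Gcnt2, Itga3 (0.91), Lmo7 and Paqr7. For Tspan7 they were Lcp1 (0.99), Cd38, Calcrl, Gata2 and Clec14a. Tspan13 was closest to Adgrf5 (0.98), Slco2a1, Myzap, Rnf141 and Tspan12 (0.98), another member. Cd81 was closest to Fasn (0.97), Rbms3, Parp3, Airn and Igf2r, and Cd9 to Ucp2 (0.92), Nipsnap1, Bbip1 and Aga.

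The 27 genes lie on 12 chromosomes in GENCODE M21 (GRCm38, the build mm10), with 5 each on chromosomes 6 and 7. Tspan8 spans chr10:115816832-115849893 on the plus strand, Tspan7 chrX:10485158-10596605 (plus), Tspan13 chr12:36014557-36042500 (minus), Cd81 chr7:143052739-143067934 (plus) and Cd9 chr6:125460266-125494791 (minus). Neighbouring members had different levels. Tspan11 and Tspan9 lie 7.4 kb apart with no coding gene between them, and adventitial fibroblasts had 217 CPM of Tspan11 and 33.9 CPM of Tspan9, whereas general capillary cells had 0.0723 and 231 CPM in the donor library. Tspan32 and Cd81 lie 33.1 kb apart, at 1.18 and 2345 CPM in alveolar fibroblasts. Tspan18 and Cd82 lie 84.6 kb apart, at 855 and 38.0 CPM in donor aerocytes and at 7.30 and 246 CPM in alveolar fibroblasts. Cd151 and Tspan4 lie 3.8 kb apart with 1 coding gene between them, at 631 and 95.2 CPM in donor aerocytes and 262 and 201 CPM in lymphatic cells.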

How the data were processed

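The authors deposited 1 UMI count table per library, unnormalized, from Cell Ranger (version 4.0.0 per the file headers and the submitters' processing notes, 3.0.1 per the labels' protocol) on mm10. The members and gene lists were chosen with earlier results of these data known.

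Outlying barcodes of each library were left out by genes, UMIs and mitochondrial share, with limits set 3 scaled deviations (MAD) away from its median (kept: donor 691 to 7887 genes, recipient 803 to 7422). Of barcodes found in both libraries, the copy with fewer UMIs was dropped. Scrublet (scanpy 1.11.5) marked 1 donor barcode by its own threshold, so top-scoring barcodes were dropped in proportion to the number of barcodes (283 donor and 110 recipient cells), with cells that passed gates of several types (144 and 180). A gate needed 3 or 4 marker genes with a UMI, and an endothelial gate also 3 of the 4 pan-endothelial genes. Ungated were 228 and 156 cells.

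UMIs were summed per library and type (277428 to 13825051) and written as CPM. Intervals are exact Poisson, binomial or conditional 95% intervals (scipy 1.17.1). The ratio procedure was run on simulated Poisson counts only, which carry no spread between cells or mice and so cannot check it against such spread. Shares at 2000 UMIs are hypergeometric expectations over the cells that reach that depth (14 donor and 2 recipient general capillary cells and 25 of 55 donor alveolar type 1 cells do not). With 1 library a group, no test between groups was run. By rule, members with at least 20 CPM in a type of at least 50 cells are named with their levels, and so are members and partner genes that were apart. The other 5 members are named with counts or ranges, and partner genes that were not apart (such as Adam10, Fzd4, Ndp, Tm4sf1 and Upk1b) were chosen after their values were seen. Of the 5 genes of closest profile to each leading member, 1 is not reported here. Alternatives changed the cell filter, shared barcodes, doublet scores, gates, free RNA, scaling, averaging, UMI minimum and fold.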

Additional observations from a re-analysis of the deposited data

How the results depend on the processing

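The number of tetraspanin genes apart between the libraries, 2 in each type, stayed within 1.5 times in general capillary cells under every alternative. It was 1 in aerocytes and 1 in venous cells with a minimum of 100 UMIs. In alveolar type 1 cells it was 1 with free RNA subtracted, with a minimum of 100 UMIs, with shared barcodes kept in both libraries and with a stricter gate, 4 without doublet scores, 5 with the mean of CPM per cell and 6 without a cell filter. The numbers of concentrated members stayed within 1.5 times (5 to 10 in the donor and 6 to 10 in the recipient library), while the share of all genes called moved to 38.5% and 34.7% with a minimum of 1 UMI and to 9.94% and 11.7% with a 3-fold limit. Of the log2 ratios, 2 reversed in sign: with free RNA subtracted, Cd63 in aerocytes was at 1.35 and Cd81 in aerocytes at 0.55. The latter is under the 1.5-fold limit. Of 137 recomputed ratios 132 kept their call. Among these, 14 with a minimum of 1 UMI and 11 with a minimum of 100 UMIs were unchanged by construction. With CPM averaged over cells the ratio changed but the interval of the summed UMIs was kept. Tspan8 in alveolar type 1 cells thus kept its call at a log2 ratio of -0.81. Cd63 in aerocytes, Cd63 in venous cells and Tspan7 in alveolar type 1 cells fall under the minimum of 100 UMIs and have no value there. Of 306 recomputed levels 285 stayed within their counting interval. No paired analysis was possible because the labels give 1 library per group and no replicate numbers. Depth limits the donor alveolar type 1 cells most, with 277428 UMIs in 55 cells, and pooling hides the spread between mice.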

Other observations

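Cells of types with fewer than 50 gated cells were named after their marker gates alone and gave the following values. Ciliated cells had 934 CPM of Tspan1 in the donor library (87 UMIs, interval 748 to 1152, 6 cells) and 1245 CPM in the recipient library (117 UMIs, 1029 to 1492, 5 cells), beside 75.7 and 77.1 CPM in alveolar type 1 cells. Platelet gates, which hold anucleate cell fragments or cells carrying them, had 14775 CPM of Cd9 in the donor (10 barcodes) and 9537 CPM in the recipient library (5 barcodes). Leukocytes that passed the CD45- sort had 358 CPM of Cd53 in the donor library (8 UMIs, 4 cells) and 937 CPM in the recipient library (21 UMIs, 5 cells), with 134 and 223 CPM of Cd37 on 3 and 5 UMIs. Club cells had 123 CPM of Tspan1 on 5 UMIs. Alveolar type 2 cells, the surfactant-producing epithelium, had 194 CPM of Tspan11 (16 UMIs, 3 cells, interval 111 to 315) and 125 CPM (23 UMIs, 11 cells, 79.3 to 188), where alveolar type 1 cells had 0 UMIs of it in both libraries. Schwann cells of the recipient library had 3553 CPM of Cd9 (16 cells).

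The donor pericyte gate held 49 cells, with 1937 CPM of Cd81 (interval 1774 to 2111), 600 CPM of Cd63 (511 to 700), 59.6 CPM of Cd9 and 3.73 CPM of Tspan8. The recipient pericytes had 1946, 662, 32.6 and 8.06 CPM of these genes. Recipient arterial-gated cells numbered 26 and had 39.2 CPM of Tspan8 (8 UMIs, interval 16.9 to 77.2), 524 CPM of Cd81 and 171 CPM of Cd63. The 64 donor arterial-gated cells had 221, 99.5 and 19.5 CPM. The low Tspan8 of recipient arterial-gated cells lies on the same side as in general capillary and venous cells, on 8 UMIs.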
